A study of Mus musculus with 4 samples.

Results

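The transcriptomes of nodose neurons were compared with those of jugular neurons across all genes, within each of 4 single-cell libraries of the mouse vagal ganglion complex. Cells were taken by their deposited cluster names, those starting with NG as nodose neurons and those starting with JG as jugular neurons. Of 1825 cells in all, 1459 were nodose neurons in 18 types and 245 were jugular neurons in 6 types, so 1704 cells entered the comparison. All mice were 5 weeks old. C57BL6 mice gave 2 libraries of unselected cells (unsorted 1 and 2), and mice carrying Slc17a6tm2(cre)Lowl and the Ai14 allele Gt(ROSA)26Sortm14(CAG-tdTomato)Hze gave 2 libraries of cells sorted by fluorescence (sorted 1 and 2). In these mice, Cre made from the Slc17a6 (Vglut2) locus turns on tdTomato, so red fluorescence marks a history of Slc17a6 expression. Unsorted 1 held 188 nodose and 34 jugular neurons, unsorted 2 held 725 and 136, sorted 1 held 299 and 25, and sorted 2 held 247 and 50. The labels do not say how many mice a library holds, and the spread behind each p-value is that of libraries and may be technical.

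The vagus nerve carries signals from the airways, heart and gut to the brainstem, and its sensory cell bodies sit in a pair of fused ganglia. Nodose neurons arise from epibranchial placodes and innervate mostly the viscera, where they sense stretch, oxygen, nutrients and gut hormones. Jugular neurons arise from the neural crest, as do the neurons of the dorsal root and trigeminal ganglia, and many of them are nociceptors that carry the peptides CGRP and substance P. The transcriptional regulator Prdm12 is required for nociceptors of crest origin.

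Levels are given as unique molecular identifiers (UMIs, 1 per captured transcript) per 10000 UMIs of all cells of a class in a library, with the SD over the 4 libraries. Nodose neurons summed to 69028324 UMIs and jugular neurons to 11096239, so 3 UMIs correspond to a level of 0.000435 in nodose neurons and 0.0027 in jugular ones. Fold changes are those of limma-voom on the UMI sums with the library as a block, on the log2 scale as nodose over jugular, and a call needed a Benjamini-Hochberg adjusted p under 0.05 and a difference of at least 2-fold (1 on the log2 scale). Because the clusters rest on the transcripts tested here, a call says how alike the 4 libraries are in a difference and is no independent evidence for the classes. Both classes held the markers of sensory neurons. Slc17a6 was at 2.35 to 2.97 in nodose and 1.24 to 2.22 in jugular neurons, and Prph, a neuronal intermediate filament, was at 17.0 to 28.3 and 19.6 to 39.4.

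Nodose and jugular neurons differed in many genes. Of 10293 genes tested, 1555 were called (15.1%), 956 of them higher in nodose (9.29%) and 599 higher in jugular neurons (5.82%). The median log2 fold change over all genes tested was 0.06. The levels of 3119 genes (30.3%) did not overlap between the classes, with all 4 nodose profiles above all 4 jugular ones for 1995 genes and below them for 1124. Among called genes, 1537 differed in the same direction in all 4 libraries. A gene was tested when its level reached 0.05 in at least 4 of the 8 profiles. This admitted 301 genes through the 4 nodose profiles alone, of which 282 were called, and 153 through the 4 jugular profiles alone, of which 149 were called. Among the 8489 genes that reached 0.05 in all 8 profiles, 741 were called (8.73%), 392 higher in nodose and 349 higher in jugular neurons. The median number of UMIs per cell was 53223 ± 14181 (SD, n = 4) in nodose neurons and 47698 ± 11105 in jugular ones, higher in nodose neurons in 3 of 4 libraries. The median number of genes per cell was higher in nodose neurons in 4 of 4 libraries (log2 ratio 0.09, SD 0.08). A two-sided exact sign-flip permutation test gave the smallest p that 4 libraries allow, which is above 0.05.

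**Figure D1:**
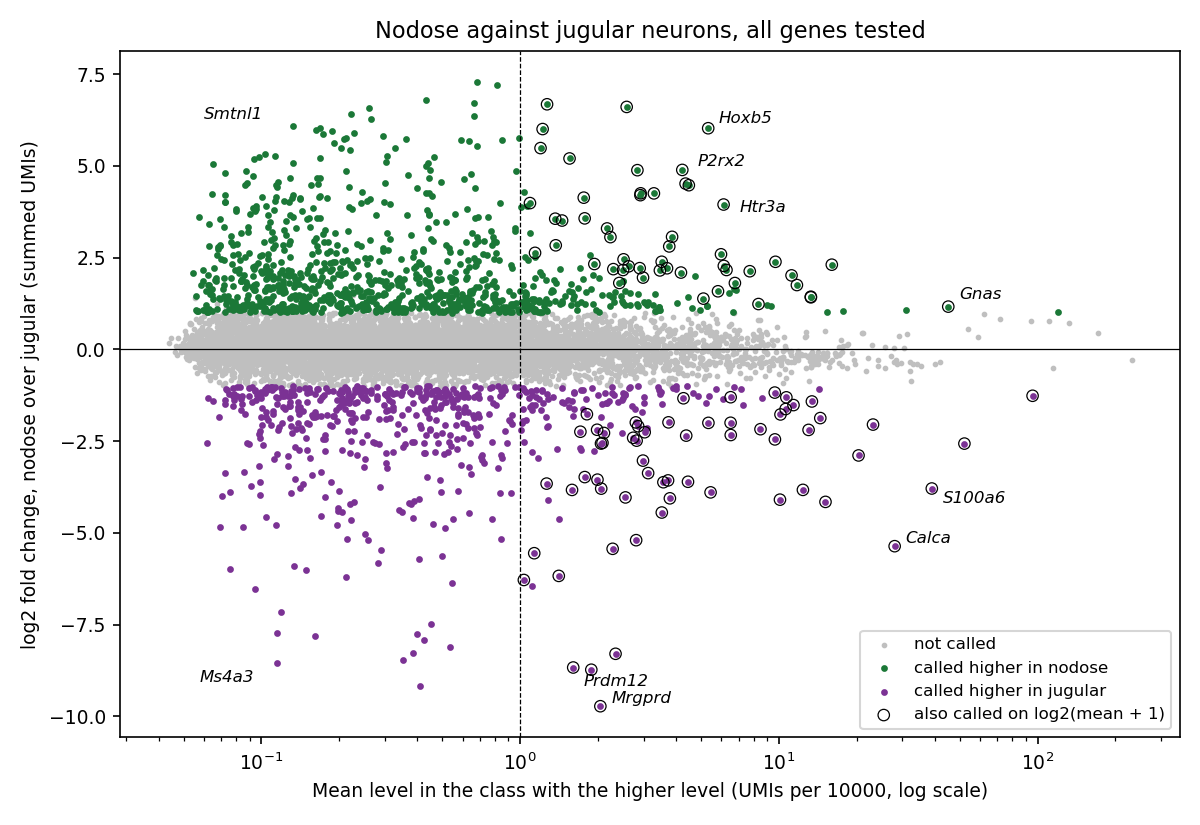
Each point is 1 of 10293 genes tested, plotted by its mean level in the class where it was higher (UMIs per 10000, log axis) and by its log2 fold change of nodose over jugular neurons. Green and purple mark the 956 and 599 called genes, and black rings the 112 genes that were also called on the log2(mean + 1) scale, all of which lie right of the dashed line at 1 UMI per 10000.

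P2rx2, Prdm12 and Calca separated the classes in every library. P2rx2 encodes an ATP-gated cation channel of visceral afferents. In the order unsorted 1, unsorted 2, sorted 1 and sorted 2 its level was 3.89, 3.15, 4.99 and 4.91 in nodose neurons and 0.19, 0.0668, 0.227 and 0.147 in jugular neurons, a log2 fold change of 4.89 (SE 0.20). The lowest nodose library lay well above the highest jugular one. Satellite glia of these preparations carried P2rx2 at 0.134, close to the jugular level. Prdm12 was at 0.00698, 0.00435, 0.00185 and 0.00205 in nodose and at 2.19, 2, 1 and 1.23 in jugular neurons (-8.67, SE 0.31), and no satellite glial or endothelial cell held a UMI of it. Its nodose level rested on 26 UMIs in all. Calca, the gene of the peptide CGRP, was at 0.291, 0.365, 1.21 and 1.2 in nodose and at 17.4, 25.1, 42.1 and 27.6 in jugular neurons (-5.36, SE 0.21). Both classes were lowest in the unsorted libraries, yet the groups did not overlap.

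**Figure D2:**
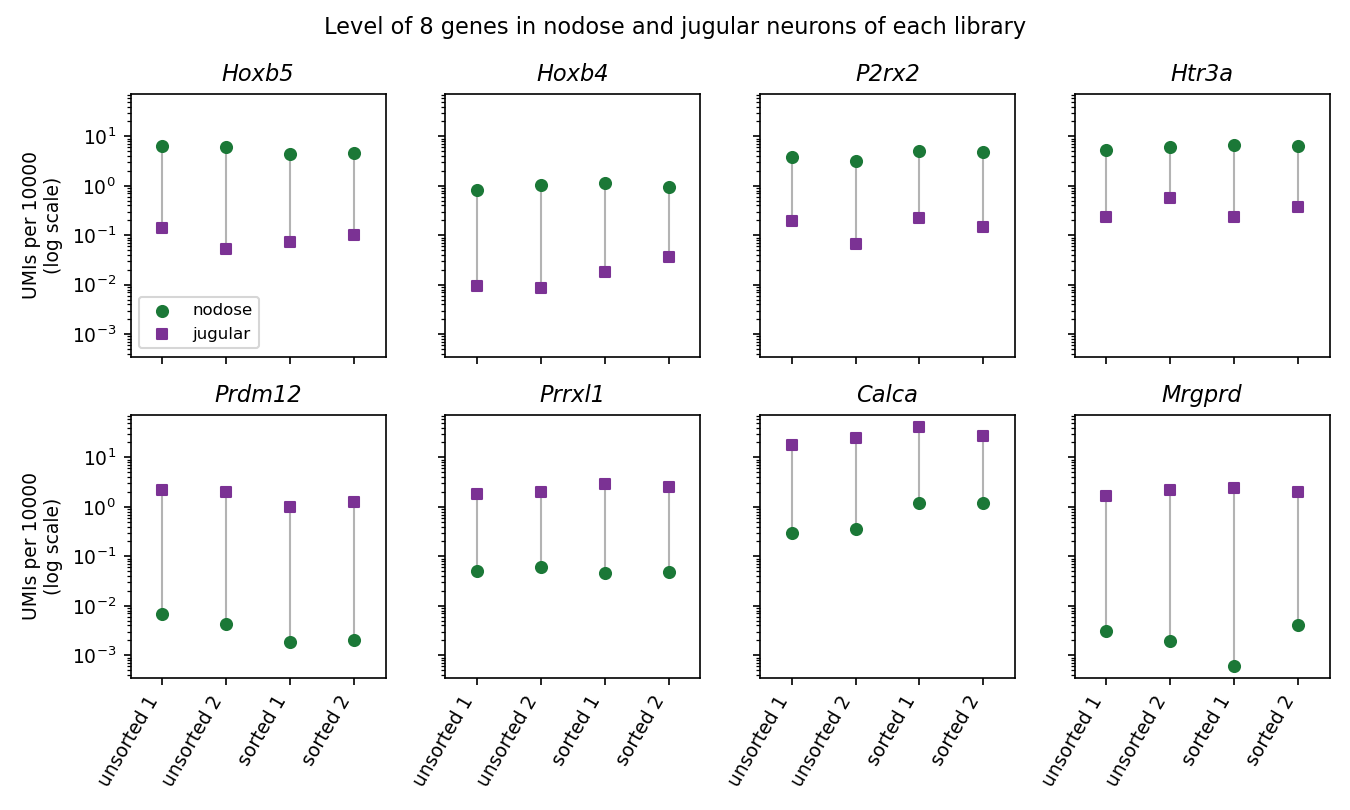
Levels of 8 genes (UMIs per 10000, log axis) in nodose neurons (green circles) and jugular neurons (purple squares) of each library, with a grey line joining the 2 classes of a library. No nodose point overlaps a jugular point of the same gene; Calca spans 0.291 to 1.21 in nodose and 17.4 to 42.1 in jugular neurons.

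The upstream sequences of 4 of the genes that differed most are shown, because the first, that of Prdm12, lies within another gene that moved with Prdm12. Each is the 250 bases before the RefSeq start on the GRCm38.p6 assembly, and capitals mark TAAT (or its reverse complement ATTA), the core read by homeodomain proteins such as Hox factors, and CANNTG, the E-box read by basic helix-loop-helix factors; matches to both strands are marked.
Prdm12 (chr2:31639787-31640036, plus strand): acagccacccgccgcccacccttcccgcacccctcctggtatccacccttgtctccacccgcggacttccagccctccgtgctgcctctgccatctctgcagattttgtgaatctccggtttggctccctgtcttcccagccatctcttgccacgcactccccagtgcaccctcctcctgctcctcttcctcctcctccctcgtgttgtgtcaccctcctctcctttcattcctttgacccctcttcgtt
Calca (chr7:114636358-114636607, minus strand): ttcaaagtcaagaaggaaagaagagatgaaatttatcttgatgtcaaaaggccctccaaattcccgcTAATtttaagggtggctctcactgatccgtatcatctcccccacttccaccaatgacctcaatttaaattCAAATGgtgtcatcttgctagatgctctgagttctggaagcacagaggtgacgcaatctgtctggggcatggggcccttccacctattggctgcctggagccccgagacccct
Phox2a (chr7:101818063-101818312, plus strand): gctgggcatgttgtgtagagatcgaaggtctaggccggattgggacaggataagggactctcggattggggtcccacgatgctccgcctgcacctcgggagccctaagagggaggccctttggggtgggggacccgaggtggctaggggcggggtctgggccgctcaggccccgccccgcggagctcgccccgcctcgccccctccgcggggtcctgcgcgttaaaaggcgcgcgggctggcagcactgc
Abcb1a (chr5:8566841-8567090, plus strand): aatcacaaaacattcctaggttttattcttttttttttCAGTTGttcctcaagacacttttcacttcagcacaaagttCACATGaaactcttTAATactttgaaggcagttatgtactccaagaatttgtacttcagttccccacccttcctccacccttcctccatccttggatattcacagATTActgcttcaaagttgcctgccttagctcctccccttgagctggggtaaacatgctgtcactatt
The Prdm12 and Phox2a windows held neither motif, Calca held 1 of each, and Abcb1a held 2 of each. Of 27025 genes with a window in the table, 69.3% held CANNTG and 58.5% held TAAT. Of the 7916 tested genes with a window, 60.9% held CANNTG and 42.9% TAAT. The shares were 66.1% and 44.0% for 693 genes called higher in nodose and 65.7% and 47.7% for 432 called higher in jugular neurons. A match describes these letters only, and binding was not measured.

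The Prdm12 window lies in an intron of Gm13425, a non-coding gene on the other strand (GENCODE vM21; chromosome 2, 31633453 to 31640589, minus strand; Prdm12 31640037 to 31655795, plus strand). Gm13425 was at 0.538, 0.461, 0.282 and 0.356 in jugular neurons, with 470 UMIs, and at 0, 0.00158, 0.000618 and 0 in nodose neurons, with 5 UMIs. Like Prdm12, it was lower in both sorted than in both unsorted jugular profiles. The genes overlap, and whether the counting used strand is not given in the sources used here, so their reads cannot be told apart with certainty. The Abcb1a window lies in an intron of Rundc3b.

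Transcription factors divided the classes in both directions. Over all genes tested, 9.29% were called higher in nodose and 5.82% higher in jugular neurons, the shares beside which each list count is read. Of 29 tested genes of a list of sensory transcription factors, 8 were called higher in nodose and 13 higher in jugular neurons (median log2 fold change -0.43; 6 of the 29 were admitted through 1 class alone). Phox2a, a homeodomain factor of visceral neurons, was at 0.26 ± 0.10 (SD, n = 4) in nodose neurons and left 1 UMI in all jugular neurons. Eya1, a cofactor of placodal development, was at 1.22 ± 0.39 against 0.0174 ± 0.011 (6.0, SE 0.38). On the jugular side, Prrxl1, a homeodomain factor of somatosensory circuits, was at 0.0512, 0.0596, 0.0463 and 0.0471 in nodose and at 1.79, 2.01, 2.85 and 2.46 in jugular neurons (-5.43, SE 0.15). Runx1 (-2.19), which specifies non-peptidergic nociceptors, and Isl2 (-1.99), a LIM homeodomain factor, were called higher in jugular neurons. Tbx3 (3.51) and Etv1 (3.07) were called higher in nodose neurons. Their types overlapped: Tbx3 was at 0.0211 in NG5 and 0.789 in JG1, and Etv1 at 0.55 in NG1 and 3.18 in JG3. Pou4f1, a general regulator of somatosensory neurons, was at 0.712 ± 0.20 in nodose neurons and 2.8 ± 0.57 in jugular ones (-1.99, SE 0.07). This smaller difference was without overlap between the library profiles, but the types overlapped: NG3 held 3.75 and JG3 1.93.

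Hox genes, which encode position along the body axis, were called in both directions, with the Hoxb cluster on the nodose side. Of 7 tested, 6 were called higher in nodose and 1, Hoxd1, higher in jugular neurons (median 5.08; 5 of the 7 were admitted through 1 class alone). Hoxb5 was at 6.32, 6.06, 4.43 and 4.53 in nodose and at 0.138, 0.0517, 0.0735 and 0.099 in jugular neurons (6.02, SE 0.26). The called genes Hoxb6 (5.55), Hoxb5, Hoxb4 (5.75), Hoxb3 (5.07) and Hoxb2 (3.11) stand next to each other on chromosome 11, from 96292476 at the start of Hoxb6 to 96354012 at the end of Hoxb2, all on the plus strand. The cluster's other members were too low to test: Hoxb7 had 17 UMIs in nodose neurons and 0 in jugular ones, Hoxb8 had 8 and 0, and Hoxb1 had 12 and 1, at a nodose depth more than 6 times the jugular one. Hoxb5os, on the other strand and overlapping Hoxb5 and Hoxb6, had a log2 fold change of 5.32 and 1 jugular UMI. Hoxc4, on chromosome 15, was at 0.132 ± 0.027 in nodose neurons and left 3 UMIs in jugular ones. Hoxd1, on chromosome 2, ran the other way, at 0.00776, 0.0079, 0.00988 and 0.00547 in nodose against 0.143, 0.293, 0.196 and 0.374 in jugular neurons (-5.03, SE 0.31). Its neighbours in the Hoxd cluster were too low to test, but their few UMIs lay in jugular neurons as well: Hoxd4 had 37, Hoxd3 had 14 and Hoxd8 had 9, against 0 in all nodose neurons.

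Neuropeptide genes split by class, 5 of 14 tested being called higher in nodose and 6 higher in jugular neurons (median -0.16). Of these 14, 1 gene, Grp, was admitted through 1 class alone. The jugular set was led by the pain-associated peptides. Calcb, which encodes a second form of CGRP, was at 0.162 ± 0.055 in nodose neurons and 3.53 ± 1.4 in jugular ones (-4.45, SE 0.11). Tac1, the substance P precursor, was at 0.707, 0.682, 1.05 and 1.04 in nodose and at 13.1, 10.6, 16.4 and 9.51 in jugular neurons (-3.83, SE 0.13). Its class averages did not overlap, but the types did: NG5 carried Tac1 at 24.5 and JG1 at 1.08. Nmb, the gene of neuromedin B, was at 0.38 ± 0.17 against 4.46 ± 1.1 (-3.61, SE 0.10). In nodose neurons Vip, a relaxant peptide of visceral nerves, was at 1.05, 0.803, 2.04 and 2.31 against 0.0143, 0.00862, 0.0613 and 0.088 in jugular neurons (5.2, SE 0.33). Both classes were higher in the sorted libraries. Cartpt, a satiety-related peptide, was at 4.72 ± 2.2 against 1.13 ± 0.33 (1.98, SE 0.10), and Grp, gastrin-releasing peptide, was at 0.187 ± 0.12 with 1 UMI in all jugular neurons.

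Subunits of the nicotinic and serotonin-gated channels that are linked in the genome were higher in nodose neurons. Of 9 acetylcholine receptor genes tested, 5 were called higher in nodose and 1 higher in jugular neurons (median 1.44; 3 admitted through 1 class alone). The nicotinic subunits Chrna5, Chrna3 and Chrnb4 lie side by side on chromosome 9, from 54980880 to 55048779. Chrna3 was at 1.74, 1.76, 1.93 and 1.61 in nodose and at 0.0238, 0.164, 0.0184 and 0.0807 in jugular neurons (4.13, SE 0.39). Chrnb4 was at 0.725 ± 0.14 against 0.0734 ± 0.081 (2.94, SE 0.41). Chrna5 was at 0.0934 ± 0.0047 in nodose neurons with 1 UMI in all jugular ones. Of 4 serotonin receptor genes, 2 were called in each direction (1 admitted through 1 class alone). Htr3a and Htr3b, the subunits of the serotonin-gated channel, are neighbours on chromosome 9 (48899213 to 48964990). Htr3a was at 5.39, 6.06, 6.57 and 6.45 in nodose and at 0.238, 0.571, 0.233 and 0.374 in jugular neurons (3.95, SE 0.19), and Htr3b was at 0.838 ± 0.17 against 0.0512 ± 0.0074 (3.98, SE 0.22). The metabotropic receptors Htr1f (-2.42, SE 0.23) and Htr1b (-1.52, SE 0.14) were called higher in jugular neurons. Without the JG4 cells, however, Htr1b fell short of the 2-fold threshold (-0.86). Htr1f was at 1.12 in JG3 and at 0.0322 or less in the other jugular types, and NG3 held 0.265. Glutamate receptor genes were called in both directions, 3 of 11 higher in nodose and 4 higher in jugular neurons (2 admitted through 1 class alone). So were GABA and glycine receptor genes, 3 of 10 in each direction (1 admitted through 1 class alone). Grik1, a kainate receptor subunit gene, was at 0.0217, 0.0273, 0.0161 and 0.0239 in nodose and at 0.676, 0.785, 1.06 and 0.84 in jugular neurons (-5.17, SE 0.20). Of 9 transmitter genes, 5 were called higher in nodose and 1 higher in jugular neurons (3 admitted through 1 class alone, Ddc among them). Ddc, the decarboxylase of serotonin and dopamine synthesis, was at 0.431, 0.477, 0.541 and 0.911 in nodose and at 0.0143, 0.00431, 0.00613 and 0.0147 in jugular neurons (5.71, SE 0.42), and the vesicular glutamate transporter gene Slc17a8 ran the other way (-4.84). Of 7 purinergic receptor genes, P2rx2 and the adenosine receptor gene Adora2a (3.01, SE 0.24) were called, both higher in nodose neurons.

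Voltage-gated and sensory channels were divided by member. Of 50 potassium channel genes tested, 8 were called higher in nodose and 17 higher in jugular neurons (median -0.36; 5 admitted through 1 class alone). Kcnk3, a background channel closed by acid, was at 2.29, 2.05, 1.24 and 1.21 in nodose neurons and 0.524, 0.438, 0.159 and 0.29 in jugular ones (2.23, SE 0.11). Both classes were lower in the sorted libraries, and the lowest nodose library stayed above the highest jugular one. Kcnip3, a subunit of fast-inactivating channels, was at 0.111 ± 0.019 against 0.854 ± 0.12 (-2.95, SE 0.11). Of 12 sodium channel genes, 2 were called higher in nodose and 3 higher in jugular neurons. Scn11a, which encodes the nociceptor channel Nav1.9, was at 0.668 ± 0.044 in nodose neurons and 2.86 ± 0.54 in jugular ones (-2.09, SE 0.09). Scn10a, which encodes the tetrodotoxin-resistant channel Nav1.8 of nociceptors, was at 1.21, 1.56, 1.61 and 1.6 against 2.9, 3.64, 3.44 and 3.86 (-1.21, SE 0.06). Without the JG2 cells Scn10a fell short of the threshold (-0.91). Scn3a, which encodes the channel Nav1.3, was at 0.57, 0.669, 0.553 and 0.719 in nodose neurons and at 0.1, 0.112, 0.0919 and 0.158 in jugular ones (2.43, SE 0.15). These library profiles did not overlap, but the types did: NG3 held 0.011 and JG6 0.515.

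Of 13 mechanosensitive and acid-sensing channel and receptor genes, 3 were called higher in nodose and 4 higher in jugular neurons (median -0.05; 4 admitted through 1 class alone). Tmc3, a transmembrane channel-like gene of the family of hair-cell transduction channels, was at 0.789, 0.715, 1.54 and 2.03 in nodose and at 0.00952, 0.00862, 0.0123 and 0.00734 in jugular neurons (6.68, SE 0.43). It had the largest fold change of all called genes at 1 or more UMIs per 10000 in nodose neurons. Gpr65, a proton-sensing receptor, was at 0.449 ± 0.18 against 0.0157 ± 0.0086 (4.87, SE 0.42), and among nodose types its level ran from 0 to 4.51, the highest in NG17. Piezo1 (3.16, SE 0.40), a mechanically gated channel of vessels and other tissues, was called higher in nodose neurons. Piezo2, which encodes the main channel of light touch, was at 0.433 ± 0.059 in nodose neurons and 2.11 ± 0.42 in jugular ones (-2.28, SE 0.09). It was at 7.68 in JG1 and 3.90 in JG5 but at 0 in JG6, and NG3 held 3.40. Of 10 TRP channel genes, Trpc4 (1.39) was called higher in nodose and 2 higher in jugular neurons, Trpm3 (-1.35, SE 0.23) among them (2 admitted through 1 class alone). Trpm3 was not called in the sorted libraries alone (-0.86). Trpv1, the capsaicin receptor gene, was not called. It was at 1.02, 0.943, 1.44 and 0.97 in nodose and at 1.24, 1.4, 0.76 and 0.756 in jugular neurons (0.01, SE 0.20), and the classes overlapped. With each type weighted equally it was called higher in jugular neurons (-1.16). Trpa1, the channel of irritant chemicals, was not called over all 4 libraries either (0.59, SE 0.21). It was called higher in nodose neurons in the sorted libraries alone (1.31) and without the JG4 cells (1.66).

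Receptors for hormones, growth factors and inflammatory mediators also divided. Of 7 tested genes on the list of gut hormone and metabolic receptors, which also holds the peptide gene Cartpt, 5 were called higher in nodose and 1 higher in jugular neurons (median 1.98; 2 admitted through 1 class alone). Cckar, the receptor for the gut hormone cholecystokinin, was at 3.89, 4.79, 1.07 and 1.61 in nodose and at 0.195, 0.0906, 0.0674 and 0.11 in jugular neurons (4.88, SE 0.29). The sorted nodose profiles were the lower ones, still above every jugular profile. Among the types, Cckar ran from 0.0421 in NG5 to 27.8 in NG13, and JG1 held 0.688. Npy2r, a receptor for peptide YY, was at 0.621 ± 0.073 against 0.164 ± 0.037 (1.98, SE 0.17). Npy1r ran the other way, at 0.0638 ± 0.021 against 0.592 ± 0.19 (-3.16, SE 0.13). JG4 carried it at 2.72, and without JG4 the difference turned to 0.07 and was not called.

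Among 11 neurotrophic factor receptors, 4 were called in each direction (median -0.33), and 1 of the 11, Gfra3, was admitted through 1 class alone. Ntrk2, the receptor of BDNF, was at 4.33, 4.96, 3.85 and 4.82 in nodose and at 0.186, 0.162, 0.098 and 0.363 in jugular neurons (4.47, SE 0.21). The common neurotrophin receptor gene Ngfr was at 11.2 ± 0.61 against 2.83 ± 1.3 (2.01, SE 0.20). Gfra3, the receptor of artemin, was at 0.00543, 0.00435, 0.0284 and 0.0178 in nodose and at 0.895, 1.03, 1.07 and 1.14 in jugular neurons (-6.28, SE 0.39).

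Of 26 genes for receptors of itch and inflammatory mediators, 6 were called higher in nodose and 11 higher in jugular neurons (median -0.43; 4 admitted through 1 class alone). Mrgprd, a receptor of non-peptidergic nociceptors, had the largest fold change of all genes tested. It was at 0.0031, 0.00198, 0.000618 and 0.0041 in nodose, with 16 UMIs, and at 1.62, 2.15, 2.38 and 2.02 in jugular neurons (-9.72, SE 0.47). Its level was 5.05 in JG2, 0.387 in JG3 and 0 in JG1 and JG6. Lpar3, a lysophosphatidic acid receptor, was at 0.107 ± 0.022 against 1.59 ± 0.88 (-3.83, SE 0.15). It too was carried by JG2, at 3.38, and without JG2 its fold change turned to 0.09 and was not called. On the nodose side, the thrombin receptor gene F2r was at 2.87, 2.46, 3.39 and 2.98 against 0.0381, 0.127, 0.374 and 0.114 (4.25, SE 0.31), and the sphingosine-phosphate receptor gene S1pr3 at 2.5 ± 0.22 against 0.672 ± 0.15 (1.86, SE 0.13). Of 3 opioid and cannabinoid receptor genes (1 admitted through 1 class alone), Oprk1 (2.81) and Cnr1 were called, both higher in nodose neurons. The cannabinoid receptor gene Cnr1 was at 1.14 ± 0.060 against 0.30 ± 0.024 (1.94, SE 0.10).

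Genes of connectivity and of the cell surface were called in both directions. Of 41 axon guidance genes tested, 15 were called higher in nodose and 6 higher in jugular neurons (median 0.18; 6 admitted through 1 class alone). The netrin receptor genes Unc5b (2.84), Unc5c (2.93) and Unc5d (3.17) were called higher in nodose neurons. Of the secreted Slit repellents, Slit2 (4.41) was called higher in nodose and Slit1 (-2.76) higher in jugular neurons. Plxnc1, a semaphorin receptor, was at 0.147, 0.135, 0.153 and 0.154 in nodose and at 2.33, 1.9, 2.12 and 1.88 in jugular neurons (-3.79, SE 0.08), a narrow spread in both classes. Of 17 collagen, laminin and integrin genes, 8 were called higher in nodose and 3 higher in jugular neurons (6 admitted through 1 class alone). Of 26 cadherins and protocadherins, 6 and 5 were called in those directions (4 admitted through 1 class alone). Among 15 synaptotagmins, which sense calcium at vesicles, 4 were called higher in nodose and 5 higher in jugular neurons (4 admitted through 1 class alone). Syt7 was at 0.313 ± 0.076 against 3.73 ± 0.39 (-3.57, SE 0.10) and Syt6 at 0.00211 ± 0.0018 against 0.536 ± 0.12 (-8.11, SE 0.60).

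Signalling and ion transport genes were called in both directions. Of 34 G protein and regulator genes, 8 were called higher in nodose and 7 higher in jugular neurons (3 admitted through 1 class alone), of 11 sodium pump and FXYD genes 2 in each direction, and of 14 S100 and annexin genes 1 and 5. S100a6, a small calcium-binding protein, was at 2.63, 2.57, 3.43 and 2.7 in nodose and at 44.0, 44.8, 37.6 and 29.7 in jugular neurons (-3.79, SE 0.11). All jugular libraries lay far above all nodose ones, although the nodose type NG3 held 22.4 and the jugular type JG1 held 11.1. Rgs10, a regulator of G protein signalling, was at 0.843 ± 0.14 against 15.2 ± 2.9 (-4.16, SE 0.10). Fxyd2, the gamma subunit of the sodium pump, was at 8.74 ± 1.8 against 52.2 ± 12 (-2.57, SE 0.06). By type both overlapped: Rgs10 was at 2.91 in JG5 and 3.05 in NG3, and Fxyd2 at 0.82 in JG6 and 17.2 in NG12. Gnas, which encodes the stimulatory G protein subunit, was at 48.8, 41.5, 47.2 and 43.2 in nodose and at 22.1, 17.6, 21.5 and 19.7 in jugular neurons (1.16, SE 0.04). The lowest nodose library was well above the highest jugular one.

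Mitochondrially encoded genes were higher in nodose neurons, and ribosomal protein genes differed by less than 2-fold. All 13 mitochondrially encoded genes had fold changes above 0 (median 0.96), and 6 of them were called higher in nodose neurons, led by mt-Nd5 at 17.9, 21.6, 9.55 and 15 against 2.54, 4.8, 1.8 and 3.85 (2.31, SE 0.11). The median mitochondrial share of a cell's UMIs was 7.67% ± 0.64 (SD, n = 4) in nodose and 4.42% ± 0.72 in jugular neurons, higher in nodose neurons in 4 of 4 libraries, which again gave the smallest p that the exact sign-flip permutation test can reach. None of 81 ribosomal protein genes was called by limma-voom, although 70 had an adjusted p under 0.05, and their median fold change was -0.23. Of 21 genes on a list for cholesterol synthesis and its control, 19 lay above 0 (median 0.43) but only Insig1 was called (1.03, SE 0.10). Insig1 sat at the threshold and was not called with median-of-ratios scaling (0.96), without unsorted 1 (0.99) or without sorted 2 (0.95). Of 16 glycolysis genes, Eno2 alone was called (1.16, SE 0.09). Eno2 was not called without the JG2 cells (0.47). Of 18 genes that respond to dissociation and injury, 2 were called higher in nodose and 1 higher in jugular neurons (median 0.36). These counts lie near the shares over all genes tested, 9.29% and 5.82%.

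**Figure D3:**
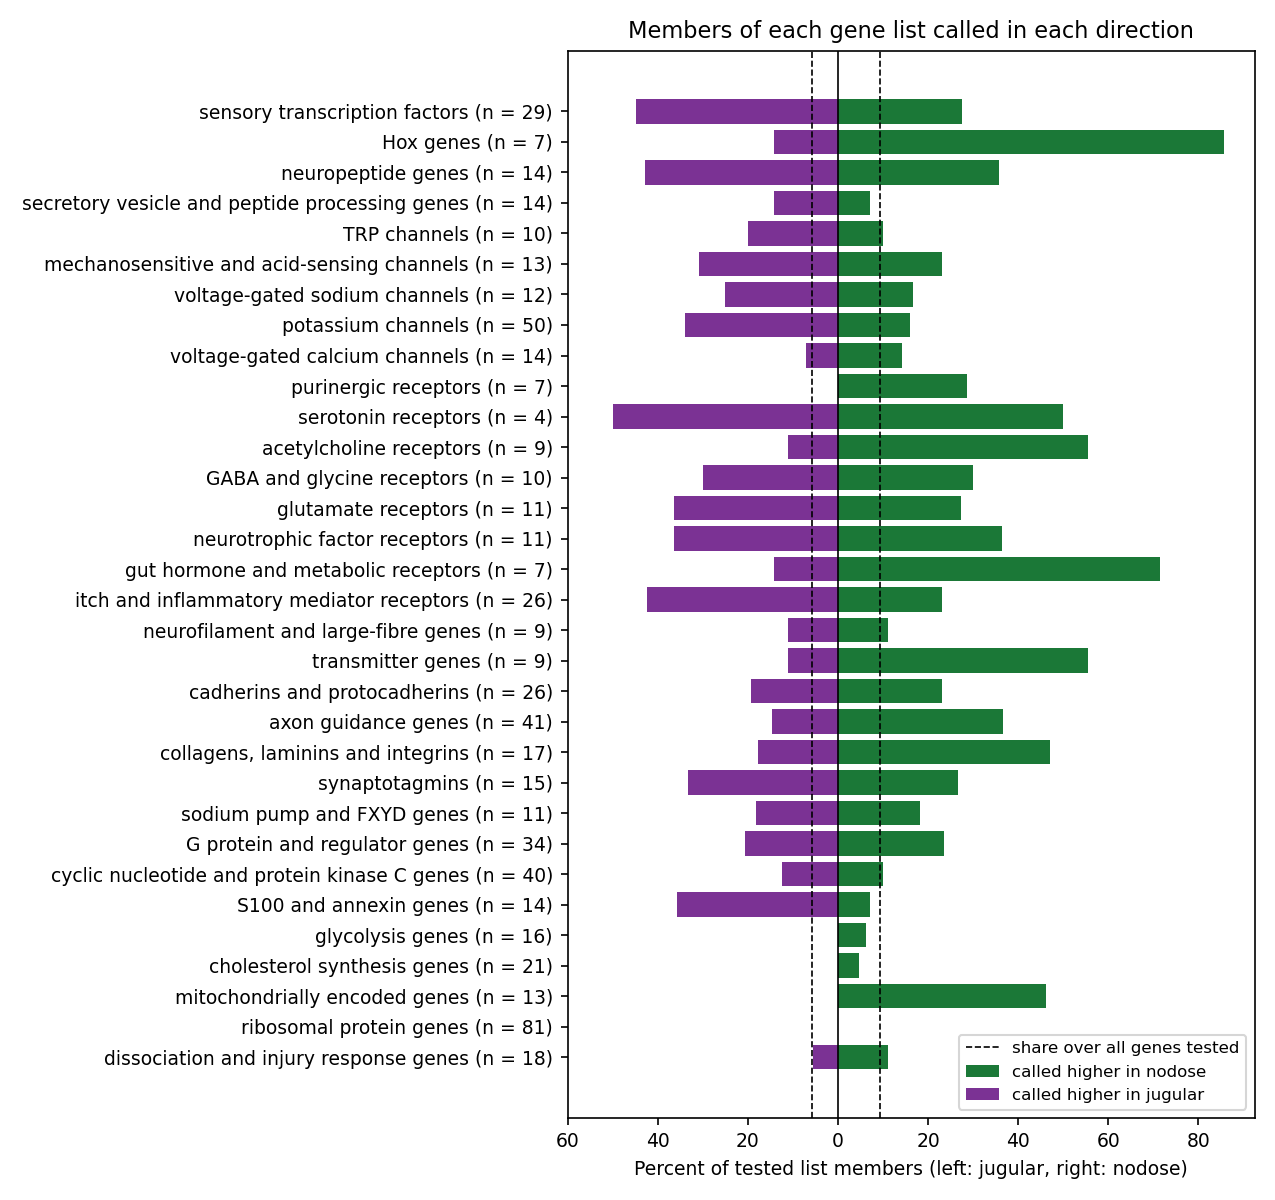
Percent of the tested members of each gene list, of those with at least 4 tested and without the lists of cell type markers, called higher in nodose (green, to the right) or in jugular neurons (purple, to the left); dashed lines mark the shares over all genes tested, 9.29% and 5.82%. Among the lists drawn, Hox genes reach furthest to the nodose side (6 of 7) and ribosomal protein genes show no bar (0 of 81).

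Reading back the UMIs made it possible to judge genes too low for a log2(mean + 1) scale. A gene under 1 UMI per 10000 in both classes cannot differ by 1 on that scale whatever its fold, and the 112 genes called there were all at 1 or more and were all called from the UMI sums as well. On the UMI sums, 336 of 2113 genes at 1 or more were called (15.9%), 1030 of 6933 genes at 0.1 to 1 (14.9%) and 189 of 1247 genes under 0.1 (15.2%). The median SE of the log2 fold change was 0.07, 0.12 and 0.23 in these ranges, so the low genes were measured less precisely. With a pseudocount of 0.1, 762 genes were called, 754 of which were also called from the UMI sums.

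**Figure D4:**
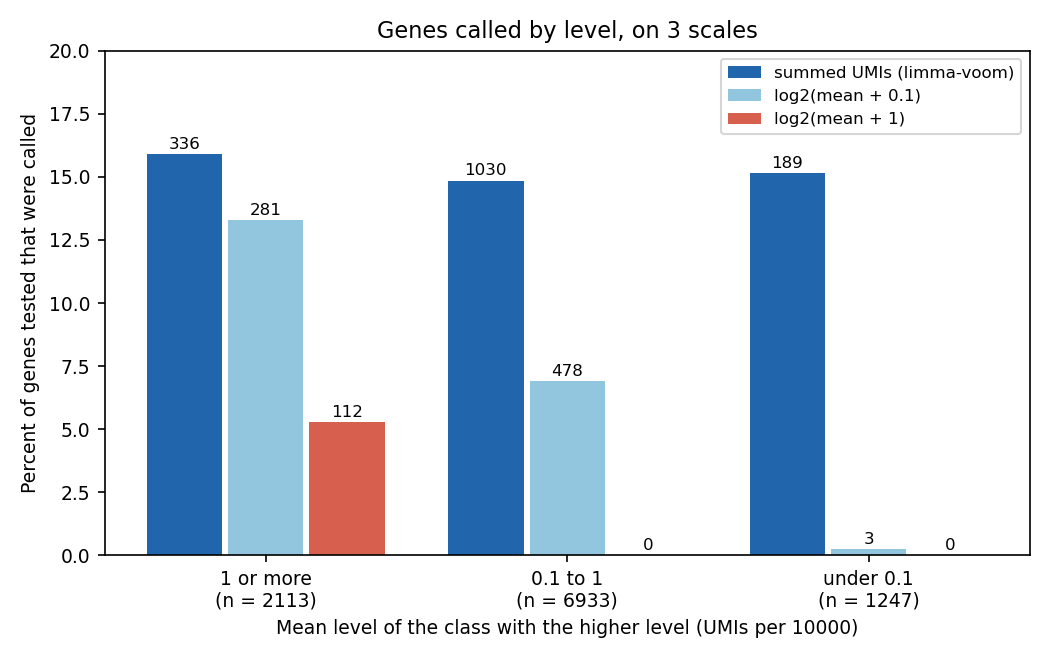
Percent of tested genes called in each range of mean level (UMIs per 10000, in the class where the gene was higher), on 3 scales; numbers above the bars count the genes. UMI sums called 336, 1030 and 189 genes from the highest to the lowest range, and the log2(mean + 1) scale 112, 0 and 0.

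Other genes with large folds included a G protein subunit and a secreted enzyme. Tmem45b, a transmembrane protein gene, was at 0.0031, 0.00119, 0.00494 and 0.00888 in nodose and at 1.4, 1.25, 2.83 and 2.06 in jugular neurons (-8.73, SE 0.38). Gna14, a G protein alpha subunit gene, was at 0.0132 ± 0.011 against 1.11 ± 0.23 (-6.45, SE 0.43). Pla2g7, which encodes a secreted phospholipase, was at 0.0341, 0.0233, 0.0266 and 0.00957 in nodose and at 0.867, 0.942, 1.23 and 1.5 in jugular neurons (-5.55, SE 0.29), and its levels separated all types. Lypd1, a modulator of nicotinic receptors, was at 5.22, 3.9, 3.26 and 5.06 in nodose and at 0.1, 0.144, 0.527 and 0.136 in jugular neurons (4.52, SE 0.37). All 4 genes were without overlap between the library profiles of the classes. By type, however, Tmem45b overlapped (0 in JG6, 0.0161 in NG2), as did Gna14 (0.0183 in JG1, 0.0606 in NG3) and Lypd1 (0.0551 in NG3, 0.338 in JG6).

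Low genes with large folds included regulators and secreted proteins. In nodose neurons, St18, a zinc-finger factor, was at 0.694, 0.719, 0.577 and 0.74, against 4 UMIs in all jugular neurons, and C1ql3, a secreted synaptic organiser, at 0.739, 0.893, 0.732 and 0.897, against 5. Its paralog C1ql2 was at 0.433 ± 0.11 with 3 jugular UMIs, a ratio of 155 (95% counting interval 53.1 to 753). Phox2a, with 1681 nodose UMIs and 1 jugular UMI, had a ratio of 270.2 (48.5 to 10673). The cross-linking enzyme gene Lox left 1 jugular UMI as well. Smtnl1 had 908 UMIs in nodose neurons and 0 in jugular ones, at least 48.7-fold higher when 3 UMIs over the class are taken as the limit. Tacr3, a tachykinin receptor gene named here after its values were seen, had 452 and 0 UMIs, at least 24.2-fold higher. In jugular neurons, Ms4a3 was at 0.129, 0.0884, 0.159 and 0.0844, with 117 UMIs against 0 in all nodose neurons, at least 243-fold higher. By type, Ms4a3 was at 0.257 in JG2 and at 0.0155 or less in the other jugular types. Wfdc2, a protease inhibitor gene, was at 0.0031, 0, 0.000618 and 0.00205 in nodose and at 0.314, 0.157, 0.527 and 0.543 in jugular neurons (-8.26, SE 0.55). Its level was 3.23 in JG1 and 0.0432 or less in the other jugular types. In all, 28 genes called higher in nodose had 3 or fewer jugular UMIs and 3 genes called higher in jugular neurons had 3 or fewer nodose UMIs; the jugular sums are shallower, so that limit lies at a higher level there. Fitted folds of genes this close to 0 depend on the count added before the log, and intervals and limits cover counting error only.

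Few of the called genes separated every type of one ganglion from every type of the other. This held for 55 of 1555 called genes (3.54%), 37 higher in nodose and 18 higher in jugular neurons. Hoxb5 was at 0.905 to 12.3 over the 18 nodose types and at 0.055 to 0.129 over the 6 jugular types, and Abcb1a, which encodes a drug efflux pump, at 0.0772 to 1.26 against 0 to 0.0183. Abcb1a was also at 7.06 in endothelial cells. Jugular types held Prdm12 at 1.3 to 2.17 against 0 to 0.0211 in nodose types, Samsn1, an adaptor protein gene, at 0.113 to 1.01 against 0 to 0.0276, and Prrxl1 at 0.974 to 3.52 against 0 to 0.702. The usual called gene behaved otherwise. The median gene called higher in nodose neurons was at least 2-fold above the highest jugular type in 3 of 18 types, and 239 of 956 were so in none. Of the genes called higher in jugular neurons, 291 of 599 reached 2-fold above the highest nodose type in no type, and the median was 1 of 6 types. P2rx2, higher in nodose neurons in every library, ran from 0.298 in NG3 to 8.59 in NG6, and JG3 held 0.472. Calca was at 75.6 in JG4 but at 0.101 in JG1 and 0.676 in JG6, while NG4 held 5.91.

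**Figure D5:**
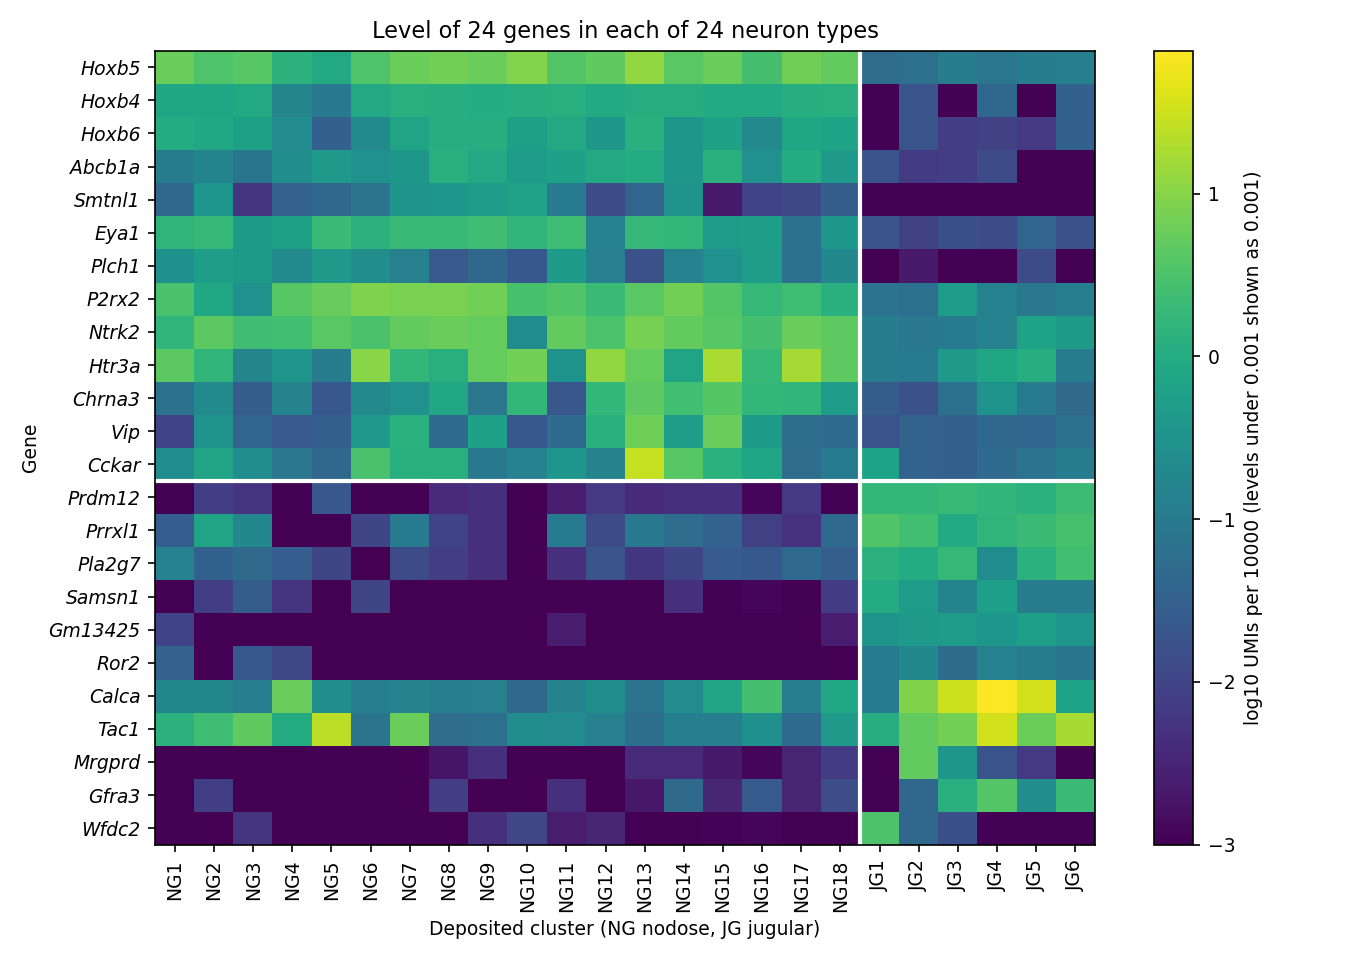
Level of 24 genes (rows, log10 UMIs per 10000, colour) in 18 nodose and 6 jugular types (columns); white lines part nodose from jugular types and genes called higher in nodose (upper 13 rows) from those called higher in jugular neurons. Hoxb5 and Prdm12 change at the white line in every column, while Vip, Cckar, Calca, Mrgprd and Wfdc2 are high in a few types.

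JG2, with 70 of the 245 jugular cells, and JG4, with 66, weighed most in the jugular average. JG2 was the type of highest level for 180 of the 599 genes called higher in jugular neurons. Without JG2, 675 genes were called higher in nodose and 581 higher in jugular neurons, and without JG4, 1090 and 621. In nodose neurons NG13, the type of highest Cckar, was the type of highest level for 120 of 956 called genes. With each type weighted equally, 671 genes were called, 650 of which were also called in the same direction from the UMI sums.

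Markers of other cells moved with the comparison. All 4 tested satellite glia markers of 6 were called higher in nodose neurons (Apoe 1.21 and Fabp7 1.52 among them). Apoe was not called without unsorted 2 (0.96). Without the library as a block none of the 4 was called. Their summed level with Sox10 and Kcnj10 was 0.788 to 20.8 in nodose and 0.238 to 11.3 in jugular neurons. Apoe was at 17.0, 16.6, 1.73 and 0.643 in nodose and at 9.68, 5.64, 0.87 and 0.216 in jugular neurons, against 852 in satellite glia. Both classes were far higher in the unsorted libraries. Without the neurons in the highest 10% of their library by these markers, an alternative chosen after seeing the data, 1557 genes were called, 1497 of them shared. Of the 956 genes called higher in nodose neurons, 229 had a higher level in satellite glia than in nodose neurons. Of the 599 called higher in jugular neurons, 91 had a higher level in satellite glia than in jugular neurons. The share over all genes tested was not computed, so these counts cannot show a glial excess in either class. The part of glial transcripts in single differences was not tested. Of the endothelial markers, only Flt1, a VEGF receptor, was high enough to test, at 0.435, 0.449, 0.345 and 0.225 in nodose and at 0.00367 to 0.00613 in jugular neurons (5.73, SE 0.40). Flt1 was admitted through the nodose profiles alone, and endothelial cells held it at 17.0. The other endothelial markers were too low to test. Cdh5 was at 0 to 0.00543 in the nodose profiles and 0 to 0.00216 in the jugular ones. Cldn5 was at 0 to 0.0233 against 0 to 0.028, and Ly6c1 at 0 to 0.014 against 0 to 0.0286. Pecam1 was at 0.0277 to 0.0706 against 0.0123 to 0.0333. Esam ran the other way without overlap, at 0.0134 to 0.0209 in nodose and 0.0257 to 0.0524 in jugular profiles. Th and Dbh, shared with sympathetic neurons, were called higher in nodose neurons (2.96 and 4.03), with levels in sympathetic neurons of 8.46 and 16.0. Dbh was admitted through the nodose profiles alone. Hand2 was at 0 to 0.0109 in the nodose profiles. Hba-a2, of red blood cells, was called (2.14) but was highest in 1 nodose library, unsorted 2, at 0.511, and was not called without that library (0.29). Of the fibroblast markers only Dcn was tested, and it was not called (0.08), although in the sorted libraries alone it was called higher in jugular neurons (-2.21). No immune marker was high enough to test, and their summed level was 0.00543 to 0.0184 in nodose and 0 to 0.00952 in jugular neurons.

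An interaction of class with sorting had an adjusted p under 0.05 for 17 of 10293 genes (0.165%; limma-voom with Benjamini-Hochberg adjustment), against 986 at an unadjusted p under 0.05. With 2 libraries of each kind, genes that did not pass are not shown to be free of such a dependence. Cd59a, a complement inhibitor, was at 1.2, 1.5, 0.281 and 0.318 in nodose and at 1.1, 1.43, 0.711 and 0.902 in jugular neurons, so it was lower in the sorted libraries, and more so in nodose neurons (interaction -1.53, SE 0.13). Ndrg2, also abundant in satellite glia at 12.2, was at 4.08, 2.52, 2.29 and 2.5 in nodose and at 1.13, 0.66, 1.56 and 1.95 in jugular neurons (-1.46, SE 0.12). Over all 4 libraries Ndrg2 was called higher in nodose neurons (1.19), but not without unsorted 1 (0.97) or unsorted 2 (0.91). Mal, a membrane protein of myelinating cells, was at 0.0853, 0.106, 0.013 and 0.0116 in nodose and at 0.181, 0.198, 0.276 and 0.183 in jugular neurons (-3.23, SE 0.35), with 3.03 in satellite glia. Only its nodose level was lower in the sorted libraries. S100a6 had a smaller one (0.64, SE 0.07). Sorting, genotype and library batch cannot be told apart here.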

How the data were processed

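Single-cell libraries of pooled jugular and nodose ganglia were made with the 10x Single Cell 3' v2 kit after papain, collagenase and dispase digestion, per the labels' protocols. Cell Ranger 2.1.1, Seurat and mm10 are named per the submitters' processing notes. The sources used here do not give the cell filters, doublet removal or clustering, nor whether counting used strand. The authors deposited natural log values, ln(1 + UMIs per 10000), for 17289 genes in 1825 cells. The authors also deposited each cell's library, cluster, UMI count and mitochondrial fraction.

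Undoing the log gave whole UMIs for 100% of non-zero values within 0.01, so UMIs were read back and summed into 8 profiles, nodose and jugular for each library. All cells of both classes were kept, without calling doublets; 1 cell barcode occurred in more than 1 library. Genes at 0.05 or more UMIs per 10000 in at least 4 profiles were fitted with limma-voom (limma 3.58.1, R 4.3.3), scaled to total UMIs, with the library as a block because each library gave both profiles (3 residual degrees of freedom). Depth was compared with two-sided exact sign-flip permutation tests. In simulated data for the same comparison on 10293 genes, recovery meant an adjusted p under 0.05 in the right direction, at any fold. The fit recovered 68% of 100 genes changed by 1 on the log2 scale and 100% of 100 genes changed by 2. By adjusted p alone 8 of 10093 unchanged genes passed, and 3 also reached the 2-fold threshold of a call. How many changed genes reached that threshold was not counted. Type levels pool the libraries. Some genes are not reported here.

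The comparison, the rule for naming genes and the gene lists were chosen with earlier results of these data known. The rule named, among genes called and moving the same way in every library, those of largest fold in a low and a high range of level, up to 3 per list and direction by adjusted p, those separating all types, and those at 3 or fewer UMIs in one class. Further list members (among them Runx1, Isl2, Hoxb2, Hoxb3, Slit1, Slit2, Unc5b, Trpc4, Trpv1 and Trpa1) and the strand and cluster neighbours were named after their values were seen. Alternatives changed the scaling, the filter, the scale, the block, the cells, the libraries and the weight of the types. Loci are from GENCODE vM21 and upstream windows from RefSeq; a window was found for 7916 of 10293 tested genes.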

Additional observations from a re-analysis of the deposited data

Results flagged for a closer look

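The nodose-jugular difference itself differed between sorted and unsorted libraries for 17 genes (limma-voom interaction, adjusted p under 0.05). The interaction is the log2 fold change of nodose over jugular neurons in the sorted minus that in the unsorted libraries. It was above 0 for Trpa1 (1.24), S100a6 (0.64), Chchd2 (0.47) and Gal (1.34). It was below 0 for Cd59a (-1.53), Mal (-3.23), Rarres1 (-1.43), Palmd (-1.62), Kcnip4 (-0.74), Lgi2 (-2.89), Gm7271 (-2.35), Tmem233 (-0.74), Dcn (-3.14), Ndrg2 (-1.46), Kcnf1 (-3.99), Sepp1 (-3.96) and Mlc1 (-5.41). Galanin, the peptide of Gal, was at 0.403, 0.416, 2.15 and 1.65 in nodose neurons and at 0.671, 1, 1.69 and 1.46 in jugular ones, so its nodose level was lower than the jugular level in both unsorted libraries and higher in both sorted ones. Kcnf1, a silent potassium channel subunit gene, was at 0.113, 0.14, 0.0735 and 0.0834 in nodose neurons and at 0.019, 0.0302, 0.147 and 0.348 in jugular ones, so its sign turned as well. Satellite glia held Ndrg2 at 12.2, Cd59a at 2.15 and S100a6 at 11.8, and the part of glial transcripts was not tested. Sorting, genotype and batch cannot be told apart.

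In some groups of 4 libraries, 1 library lay far from the other libraries relative to the group's range. This held for 16 of 205 groups of the named genes (7.80%), where chance gives about 1 in 20. Among jugular profiles, Th reached 0.183 in sorted 2, Lypd1 0.527 in sorted 1 and Dbh 0.0476 in unsorted 1. Single jugular UMIs account for Phox2a (0.00476), Chrna5 (0.00216), Grp (0.00216), Hoxb5os (0.00367) and Lox (0.00367). Among nodose profiles, S100a6 reached 3.43 in sorted 1, Trpv1 1.44 in sorted 1, Slit2 0.32 in sorted 2, Ndrg2 4.08 in unsorted 1 and Hba-a2 0.511 in unsorted 2. Nodose profiles that lay low were those of Cnr1 (1.05, sorted 2), Scn10a (1.21, unsorted 1) and Prph (17.0, unsorted 2).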

How the results depend on the processing

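Of 1555 called genes, 61.5% were higher in nodose neurons. Without a filter on level, 3575 of 17244 genes were called and the nodose share fell to 46.6%; it was 46.4% for the 112 genes called on the log2(mean + 1) scale, where low genes cannot be called by construction. On the log2(mean + 0.1) scale 762 were called, and 671 with all types weighted equally. Leaving out each library in turn gave 1537 to 1641 calls. The library pairs the profiles because both classes come from the same library; without that block 1504 were called, 1460 of them shared. Of the genes named, Apoe, Fabp7 and Hba-a2 lost their call without the block. The other settings gave 1174 to 1776 calls. For the difference by sorting, 7 genes passed on the log2(mean + 0.1) scale, 5 of them shared with the 17, and 36 genes in place of 55 separated all types after thinning each cell to 10000 UMIs. Fold changes turned for Npy1r without JG4 (0.074) and Lpar3 without JG2 (0.094), the types in which these genes were highest, and calls in the other direction arose for Dcn in the sorted libraries alone (-2.21) and for Trpv1 with types weighted equally (-1.16), where the cause was not tested. On the log2(mean + 0.1) scale calls were lost for 16 named genes (Apoe, Chrna5, Dbh, Fabp7, Hba-a2, Htr1b, Insig1, Mal, Ms4a3, Ndrg2, Oprk1, Piezo1, Slc17a8, Tacr3, Trpc4 and Trpm3), and with equal weight of types for 13 (Chrna5, Dbh, Eno2, Hba-a2, Htr1b, Mal, Ndrg2, Npy2r, Oprk1, Piezo1, Tacr3, Trpc4 and Trpm3). The shallow jugular sums limit low genes most: the median SE was 0.23 for genes under 0.1 UMIs per 10000 and 0.07 for those at 1 or more.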
